A study of Homo sapiens with 4 samples.

Results

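A549, an established cell line of human lung adenocarcinoma, was profiled on Agilent expression arrays after transfection of *miR-486-5p*, the 5p strand of the miR-486 precursor. The comparison comprised 3 of the 4 arrays of the series: 1 array of cells transfected with *miR-486-5p* with Lipofectamine RNAiMAX, and 2 mock arrays, mock 1 and mock 2, of cells treated with the reagent and no RNA. The remaining array, of *miR-486-3p*-transfected cells, was set aside except where its values are given beside these. No array of a control oligonucleotide was used, so an effect of *miR-486-5p* and an effect of transfected small RNA in general cannot be told apart. Each array measured the Cy3-labeled RNA of 1 sample, with 1 slide and 1 scan for all. The time from transfection to RNA extraction is not stated for the arrays, and no source states that the mock arrays came from separate cultures. Every probe other than the controls was taken if it rose well above background either on the *miR-486-5p* array or on both mocks, and these probes measured 16024 of the 22439 genes matched on the arrays.

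A microRNA guides an Argonaute protein to messenger RNAs that pair with its seed, which lowers the stability and translation of those messages. Transcripts without a site can also move, through the regulators and pathways that the targets feed into, so a whole-transcriptome comparison holds both kinds of change and does not separate them. Cultured tumor cells that leave the cell cycle lower a large set of genes for DNA replication and mitosis together, because E2F factors and the DREAM complex act on many of their promoters.

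Signals are given as log2 values relative to the 75th percentile of the same array, so that 0 is that percentile, and a difference is the *miR-486-5p* value minus the mean of the mock values. A gene is called lower or higher here where it lay more than 0.5 below or above both mock arrays. With this rule, 2238 of 16024 genes (14%) were lower and 1809 (11.3%) were higher, while 11977 were neither. Past a stricter limit of 1, there were 640 lower and 316 higher genes, and past a limit of 2 there were 46 and 20. The median difference over all genes was 0.03, and the middle of the distribution, between its quartiles, ran from −0.31 to 0.31. Lower calls were thus 55.3% of all calls, and they were 65.9% when each array was scaled to its median in place of its 75th percentile (2630 lower and 1362 higher). The mock arrays themselves differed by more than 0.5 in 244 of the 14931 genes with every probe well above background throughout, or 1.63%. Among the same genes, 2041 were lower and 1556 were higher after *miR-486-5p*, together 24.1%.

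The calls were also examined with limma, in which the spread comes from the mock arrays with 1 residual degree of freedom. The lone *miR-486-5p* array is taken to have that same spread. At a threshold of 0.05 for the Benjamini-Hochberg adjusted p, limma called 2461 genes (15.4%) lower and 1851 (11.6%) higher. Of these, 2076 and 1508 also passed the limit against both mock arrays. The smallest limma adjusted p was 0.0279, and many probes shared it. These calls varied with processing: on the log2 values of the authors limma called 0 genes, although 8085 had an unadjusted p under the threshold. When the spread was allowed to vary with intensity, it called 4425 lower and 4187 higher. The descriptions that follow therefore rest on the size of the difference from both mock arrays, with limma calls given for some genes and lists only. In lists without them the limma counts can differ. limma called 4 and not 2 Hedgehog genes lower, 6 and not 3 NF-kappaB genes higher, and 5 and not 7 interferon-stimulated genes higher.

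**Figure D1:**
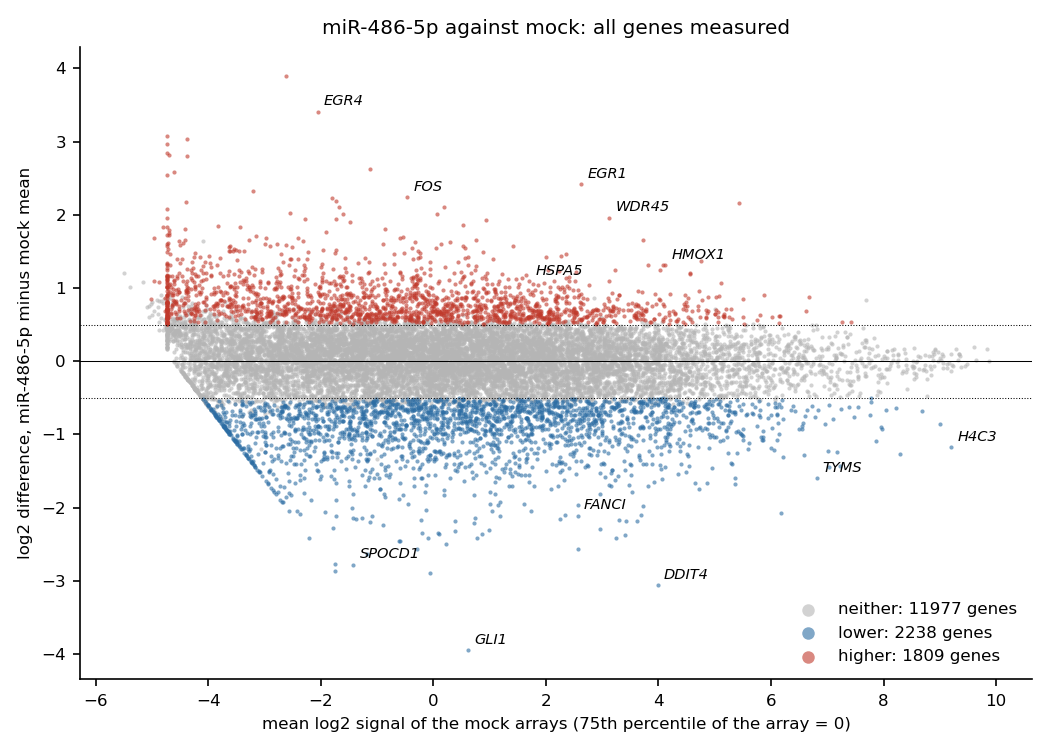
Log2 difference between the miR-486-5p array and the mean of the mock arrays for 16024 genes, against the mean log2 signal of the mock arrays. Dotted lines mark −0.5 and 0.5; the 2238 blue genes were lower and the 1809 red genes higher than both mock arrays, and the straight lower left edge and the column of points on the left are genes not well above background on 1 side.

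The share of lower and higher genes varied with the level of the gene. Among the 4006 genes with the lowest mock signal, 10.6% were lower and 15.8% higher, and the mock arrays differed by more than 0.5 in 10.4%. Among the 4006 genes with the highest mock signal, 16.6% were lower and 6.91% higher, and the mock arrays differed that much in 0.175%. Dim genes enter partly through the filter, since 228 genes were well above background on neither mock array and 303 were dim after *miR-486-5p*. For such genes the dim side was raised to at least the lowest signal well above background, and the difference is a bound. They made up 150 of the lower and 133 of the higher genes. Several probes were in use for 4275 genes. Of the 952 such genes past the limit, 903 (94.9%) had every probe on the same side of 0.

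The largest fall among protein-coding genes was that of *GLI1*, a zinc-finger transcription factor that is both an effector and a target of Hedgehog signaling. Its log2 signal was 0.78 and 0.46 on the mock arrays and −3.33 after *miR-486-5p*, a 15.5-fold fall (standard error of the log2 difference 0.18, limma adjusted p = 0.0279). *DDIT4*, a stress-induced inhibitor of mTOR complex 1, had mock values of 3.98 and 4.0 against 0.93 after transfection, an 8.33-fold fall. *SP5*, a factor of the SP family induced by Wnt signaling, went from 0.09 and 0.12 to −2.25. *ITGA10*, a collagen-binding integrin chain, went from 0.26 and 0.19 to −2.27. The choice of the 12 largest falls required mock arrays close together and far above the *miR-486-5p* array, as in each of these genes. The other genes among the 12 largest falls were *SPOCD1* (−2.78), *LAG3*, an inhibitory receptor of T cells (−2.63), and *MAGED2*, of the MAGE family (−2.57). They also included *DPYSL5* of the collapsin response mediator family (−2.56), the homeobox gene *TLX2* (−2.45), and *FBXO2*, an F-box protein that binds glycoproteins (−2.41). *ARHGDIB* was at −2.35 and *MIA*, a secreted protein of melanoma and cartilage, at −2.34. All are differences on the log2 scale, and only *DPYSL5* had 2 probes in use.

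The 12 largest rises included 3 immediate early genes. *EGR4* had log2 signals of −1.97 and −2.14 on the mock arrays and 1.36 after *miR-486-5p*, a 10.7-fold rise (standard error 0.122, limma adjusted p = 0.0279). *EGR1*, the best known of these zinc-finger factors, was at 2.67 and 2.59 on the mock arrays and at 5.05 after transfection, and *FOS*, a subunit of AP-1, was at −0.45 and −0.47 against 1.78. These are rises of 5.36-fold and 4.72-fold. *WDR45*, a WIPI protein of the growing autophagosome, was at 3.12 and 3.14 on the mock arrays and at 5.09 after *miR-486-5p*. *ID2*, which binds basic helix-loop-helix factors and keeps them off DNA, rose from 0.95 and 0.92 to 2.87, with its 2 probes at differences of 1.91 and 1.96. The remaining genes among the 12 largest rises were *UBAP1L* (2.62), the metalloprotease *ADAMTS16* (2.32), and *CFP*, or properdin, of the alternative complement pathway (2.19). There were also the olfactory receptor gene *OR8A1* (2.10), the histone demethylase *KDM7A* (2.03), *SRRM5* (2.01) and the scavenger receptor *CD163L1* (2.01).

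**Figure D2:**
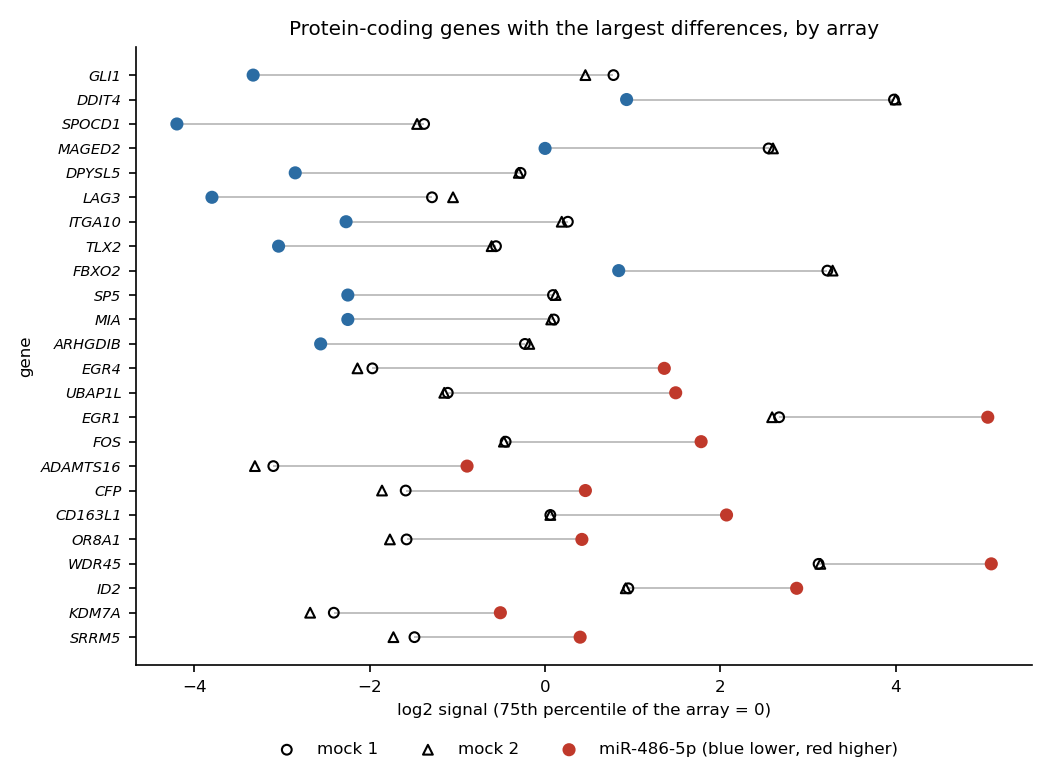
Log2 signal of the 12 protein-coding genes with the largest falls and the 12 with the largest rises on the mock arrays (open symbols) and the miR-486-5p array (filled). The genes were chosen with mock arrays within 0.5 of each other and ranked by their distance from both, so this pattern follows from the choice.

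Genes seen on 1 side only gave bounds. *EGR2* was dim on both mock arrays and, after *miR-486-5p*, was at least 7.18-fold higher, *CDSN*, a protein of the cornified epidermis, at least 8.37-fold, and *TM4SF19*, of the tetraspan family, at least 7.81-fold. In the other direction, *SLCO2A1*, a prostaglandin transporter, was at least 7.33-fold lower, *TEX19* at least 6.82-fold and *PI16* at least 5.31-fold. The GABA transporter gene *SLC6A13*, noticed after its values were seen, was higher by at least 3.90 on the log2 scale. It stands outside the 12 because 1 of its 2 probes was dim on both mock arrays.

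Promoters of some genes from the lists described next are shown because they hold motifs known for the factors of these groups. They were chosen after the motifs had been found in them. Each stretch is the last 120 bases before the annotated start of the gene, from RefSeq on GRCh38.p14, written 5′ to 3′ along the gene. Capitals mark only the motifs named for that promoter, searched on both strands. Matches to other motifs stay in lower case, as with the letters CCAAT in *SRF* and TTCAAA, the reverse complement of TTTGAA, in *EGR1*. *EGR1* (chr5:138465359-138465478, plus strand) and *SRF* (chr6:43171149-43171268, plus strand) each held 2 copies of the CArG box, the motif of serum response factor:
EGR1: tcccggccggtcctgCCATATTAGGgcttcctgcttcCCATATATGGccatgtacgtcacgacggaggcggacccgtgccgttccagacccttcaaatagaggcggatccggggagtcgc
SRF: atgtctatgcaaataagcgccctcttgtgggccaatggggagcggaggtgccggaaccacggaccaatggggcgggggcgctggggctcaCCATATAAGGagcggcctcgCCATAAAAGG

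In *E2F1* (chr20:33686386-33686505, minus strand) and *E2F2* (chr1:23531234-23531353, minus strand), capitals mark 1 E2F site each (TTTGGCGC or TTTCGCGC), and in *E2F1* also 2 copies of the CCAAT box of NF-Y:
E2F1: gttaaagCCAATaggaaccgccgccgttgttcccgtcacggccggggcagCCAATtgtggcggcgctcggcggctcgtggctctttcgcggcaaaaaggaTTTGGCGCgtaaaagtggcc
E2F2: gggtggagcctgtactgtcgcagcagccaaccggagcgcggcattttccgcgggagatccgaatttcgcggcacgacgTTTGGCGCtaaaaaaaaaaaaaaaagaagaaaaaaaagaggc

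*INCENP* (chr11:62123891-62124010, plus strand) and *CKS1B* (chr1:154974561-154974680, plus strand) held 1 CHR element (TTTGAA), through which DREAM and MuvB complexes act, together with 3 and 2 copies of the CCAAT box:
INCENP: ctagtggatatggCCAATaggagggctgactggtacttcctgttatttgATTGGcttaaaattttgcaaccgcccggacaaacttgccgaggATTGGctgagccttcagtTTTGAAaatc
CKS1B: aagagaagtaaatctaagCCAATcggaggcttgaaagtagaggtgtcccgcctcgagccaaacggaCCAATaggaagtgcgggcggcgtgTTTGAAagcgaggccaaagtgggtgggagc

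The promoter of the ER chaperone gene *HSPA5* (chr9:125241344-125241463, minus strand) held 2 copies of the CCAAT box:
HSPA5: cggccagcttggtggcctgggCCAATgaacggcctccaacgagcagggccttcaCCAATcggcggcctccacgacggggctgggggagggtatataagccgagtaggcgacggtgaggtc

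Gene lists for 62 pathways and families were then compared with all genes measured, of which 14% were lower and 11.3% higher. The median difference was −0.3 or below in 14 lists and 0.3 or above in 4, and it lay between in 44. Counts in the lists were smaller with normexp correction, which left fewer genes past the limit in 53 of the 62 lists, by over 1.5 times in 33. This setting also added an offset of 50 to each signal. An added offset makes log2 differences smaller by itself, most of all for dim genes. The smaller counts and medians given with normexp correction are therefore in part fixed by this choice, and its share was not tested. The 5 lists with the lowest medians were all of the cell cycle. The cell cycle lists together had 312 measured genes, with 195 lower genes (62.5%) and 14 higher genes (4.49%), with a median of −0.77. The 15712 genes outside these lists had a median of 0.04, with 13% lower and 11.4% higher.

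**Figure D3:**
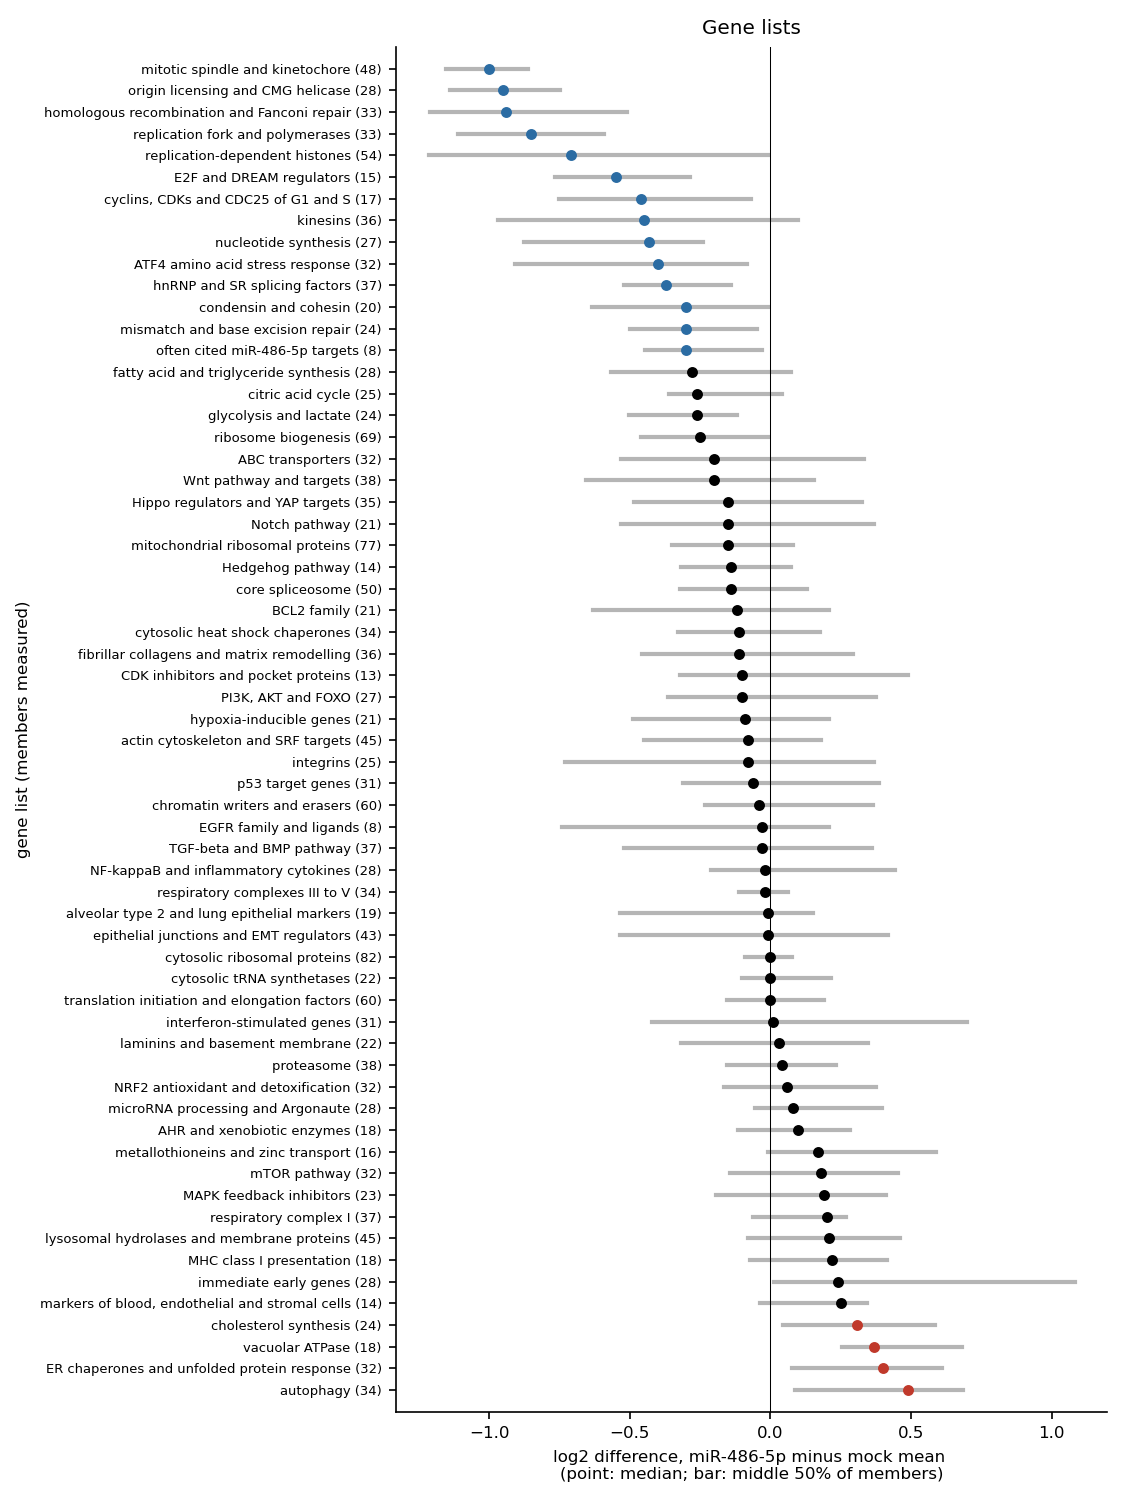
Median log2 difference (points) of the 62 gene lists, with the middle 50% of the members as bars and the number of measured members in brackets. The 14 lists in blue have medians of −0.3 or below, led by mitotic spindle and kinetochore genes at −1.0, and the 4 in red have medians of 0.3 or above, up to 0.49 for autophagy.

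Genes of the mitotic spindle and kinetochore were the most uniformly lower list. Of 48 measured members, 46 were lower and 0 higher, with a median difference of −1.0 and a range of −1.70 to −0.39, and limma called the same number, 46, lower. *INCENP*, the scaffold of the chromosomal passenger complex, had log2 signals of 2.16 and 2.26 on the mock arrays and 0.51 after *miR-486-5p*. *SPC24*, a subunit of the NDC80 complex that binds microtubules, went from −0.57 and −0.62 to −2.26, and *AURKA*, the centrosomal mitotic kinase, from 4.03 and 4.0 to 3.21. Every measured member lay below both mock arrays on average. Among kinesins, the motors that walk along microtubules, 17 of 36 were lower and 1 higher (median −0.45, or −0.24 after normexp correction). The spindle motors *KIF11* (−0.74) and *KIF20A* (−1.54) were lower, as was *KIF25* (−1.90), whereas the transport motor *KIF5B* was at 0.22 and *KIF5A* at 0.77, which limma did not call. Condensin and cohesin genes gave 8 lower and 0 higher of 20 (median −0.30). The condensin cores *SMC2* (−0.82) and *SMC4* (−0.83) were lower, as were *NCAPG* (−1.14) and the cohesin acetyltransferase *ESCO2* (−1.29).

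Most measured genes of origin licensing and of the replication fork were lower. Of 28 genes of origin licensing and the CMG helicase, 23 were lower and 0 higher (median −0.95), and limma called 22. *CDC45*, the helicase subunit loaded at origin firing, went from 4.71 and 4.59 on the mock arrays to 2.98, and *MCM10*, which activates the helicase, from 0.26 and 0.57 to −0.89. Of 33 genes of the fork and its polymerases, 27 were lower and 0 higher (median −0.85). *PRIM1*, the primase that starts each new strand, went from 3.18 and 3.17 to 1.69, and the sliding clamp *PCNA* from 4.28 and 4.20 to 3.44. *POLD3* (−1.44) and *FEN1*, the nuclease that trims Okazaki fragments (−0.94), were lower too. In nucleotide synthesis, 13 of 27 were lower and 0 higher (median −0.43). *TYMS*, which makes thymidylate, fell from 6.87 and 6.75 to 5.21.

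Replication-dependent histone genes were lower as a group but not uniformly. Of 54 measured, 30 were lower and 7 higher (median −0.71), and limma called 32 lower and 8 higher. The linker histone gene *H1-5* had signals of 3.61 and 3.64 on the mock arrays and 1.45 after *miR-486-5p*, *H2BC7* went from 1.13 and 1.16 to −0.82, and *H4C3* from 9.24 and 9.17 to 8.03. In contrast, *H2BC12* rose from 4.48 and 4.48 to 5.39 and *H2BC14* from 4.21 and 4.19 to 5.12. Most messages of these genes end in a stem-loop without a poly(A) tail, while the labeling kit primes on poly(A), and the effect of this on the values was not tested. Their sequences are also close to each other, and probes may not separate all of them.

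Genes of homologous recombination and the Fanconi pathway had 23 lower and 0 higher of 33 (median −0.94, or −0.60 after normexp correction). *FANCI*, a partner of *FANCD2* at stalled forks, went from 2.61 and 2.52 to 0.46, and *BRCA1* from 1.07 and 0.95 to −0.45. Mismatch and base excision repair genes had 6 lower and 2 higher of 24 (median −0.30). The glycosylases went in both directions: *NEIL3* (−1.70) and *UNG* (−1.08), which remove oxidized bases and uracil, were lower, whereas *TDG* (1.12) and *SMUG1* (0.77) were higher.

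The regulators of these programs were lower in part. Of 15 E2F and DREAM genes, 8 were lower and 2 higher (median −0.55). The activators *E2F1* (from 2.25 and 2.23 to 0.85) and *E2F2* (from 3.75 and 3.72 to 2.34) were lower, as was *MYBL2*, the B-MYB partner of MuvB (−0.77). The repressive factor *E2F6* (0.59) and the MuvB subunit *LIN37* (0.69) were higher. Cyclins, CDKs and CDC25 genes of G1 and S gave 8 lower and 0 higher of 17 (median −0.46). *CCNA2* went from 2.79 and 2.74 to 1.58 and *CKS1B*, the CDK-binding subunit, from 5.24 and 5.2 to 4.18, and *CCNE2* was at −0.79. *CCND1*, the D-type cyclin that responds to growth factors, differed from them at 2.42 and 2.45 on the mock arrays and 2.88 after *miR-486-5p*, which did not pass the limit. Among 13 CDK inhibitors, pocket proteins and related growth suppressors, 3 were lower and 3 higher. The median was −0.10 and changed sign with normexp correction, with probes above background on all 3 arrays alone and with the brightest probe. *CDKN1A* (p21) rose from −1.30 and −1.25 to −0.52 and *BTG2* from −1.63 and −1.60 to −0.48. *CDKN1B* (p27) was at 1.44 and 1.47 against 2.05, which limma did not call, while *TOB1* (−1.41) and *CDKN2D* (−0.91) were lower.

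**Figure D4:**
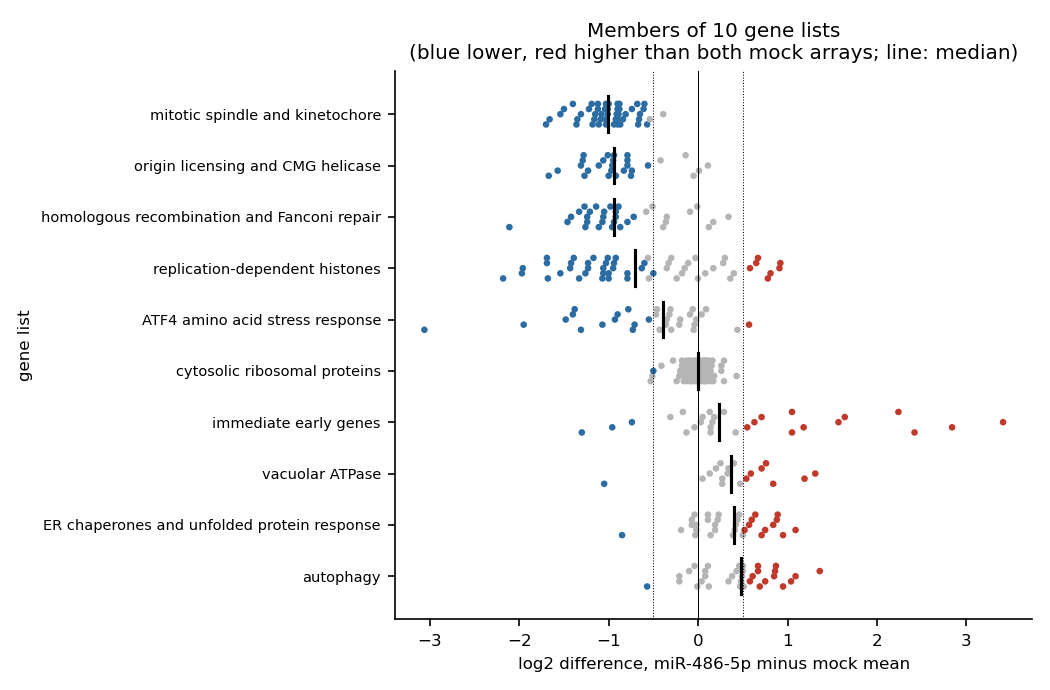
Log2 differences of the measured members of 10 gene lists, with blue points lower and red points higher than both mock arrays and a black line at the median of each list. The 48 mitotic genes lie below 0 together, the 82 ribosomal protein genes sit around 0.00, and the immediate early genes spread from −1.30 to 3.41.

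Among immediate early genes, the first to respond to growth factor and stress signals, 12 of 28 measured were higher and 3 lower, with a median of 0.24 (0.15 after normexp correction). Besides the *EGR* genes and *FOS*, the list held members that stayed near the mock arrays, and the distribution had a long upper tail. Of the 28 genes, 21 lay above 0 and 7 below, and a common shift was not tested. *SRF*, which drives several of these genes, was itself lower, at −0.55 and −0.58 on the mock arrays and −1.87 after *miR-486-5p*, and *KLF4* was at −0.96. *EGR1* rose and *SRF* fell, and both promoters printed above hold CArG boxes. The feedback inhibitors of the MAPK cascade gave 4 higher and 1 lower of 23 (median 0.19). The phosphatases *DUSP10* (1.07) and *DUSP2* (1.03) were higher and *SPRY1* (−1.16) was lower, but *DUSP6*, which acts on ERK, was at −0.23 and *SPRY4* at 0.28. Of 8 EGFR family and ligand genes, 3 were lower and 1 higher. The median was −0.03, but −0.21 without mock 1 and −0.36 with the brightest probe. The neuregulins *NRG2* (−1.07) and *NRG1* (−0.96) were lower. *ERBB4* was at 1.00 from signals near background, and limma did not call it. *EGFR* itself was at −0.19, the mean of 3 probes from −0.99 to 0.30, and its ligand *HBEGF* was at 0.33.

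In the Hedgehog list, 2 of 14 genes were lower and 0 higher (median −0.14, which was at or just above 0 with the brightest probe of each gene or after normexp background correction). Beside *GLI1*, *SMO*, the signal-transducing membrane protein, was lower, from 2.05 and 1.99 to 1.23. *PTCH1*, the Hedgehog receptor and a classic *GLI1*-dependent gene, was at −0.15, with signals of −2.95, −3.0 and −3.13. Wnt genes gave 12 lower and 2 higher of 38 (31.6% and 5.26%, median −0.20). After normexp correction there were 5 and 0, with a median of −0.11. Beside *SP5*, the receptor *FZD8* (at least 1.78 lower, dim after *miR-486-5p*) and the feedback gene *AXIN2* (−0.84, not called by limma) were lower, while *WNT10A* (1.01) and the nuclear factor *TCF7L2* (0.80) were higher. In the Notch list, 5 of 21 were lower and 3 higher (median −0.15, or 0.06 with the brightest probe). *NOTCH4* (−1.55) and *NRARP* (−1.13) were lower, *DTX3* (0.70) and *MAML1* (0.67) were higher, and *NOTCH1* (0.02) and *HES1* (−0.53) did not pass against both mock arrays.

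Hippo regulators and YAP targets gave 8 lower and 6 higher of 35 (median −0.15, or −0.06 without mock 1). After normexp correction there were 4 and 3, with a median of −0.07. The targets were divided: *CCN2* was at 1.60 and 1.70 on the mock arrays and 2.83 after *miR-486-5p*, and *AMOTL2* was higher at 0.66, whereas *ANKRD1* (−0.84) and *NT5E* (−0.85) were lower. The kinase *LATS2*, which restrains YAP, rose from −0.29 and −0.30 to 0.89. TGF-beta and BMP genes gave 7 lower and 7 higher of 37 (median −0.03). The inhibitory *SMAD6* (−1.80) and the ligand *TGFB2* (−1.13) were lower, *ID2* and *ID4* (1.07) were higher, and *ID1* (−0.46) did not pass.

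Genes of PI3K, AKT and FOXO signaling gave 3 lower and 5 higher of 27, with a median of −0.10 that was just above 0 with the brightest probe or with probes above background on all 3 arrays alone. After normexp correction 0 of these genes passed the limit. *IGFBP3*, which binds insulin-like growth factors, went from −2.16 and −2.19 to −4.07, and the receptor adaptor *IRS1* was at −1.23 whereas *IRS2* was at 0.85. *FOXO4* (1.53, with 1 of 2 probes dim on the mock arrays) and *FOXO1* (0.66) were higher. Among 8 measured genes often cited as targets of *miR-486-5p*, 1 was lower and 1 higher (median −0.30, or −0.12 after normexp correction): the kinase gene *PIM1* went from 2.15 and 2.04 to 0.36, and *FOXO1* was the higher one. In the mTOR pathway, 6 of 32 were lower and 7 higher (median 0.18). With median scaling there were 6 and 2, and with normexp correction 5 and 2. Apart from *DDIT4*, the Rag GTPase gene *RRAGB* was lower (−1.34) while *RRAGA* (0.70) and the inhibitor *TSC1* (0.77) were higher, and *SESN2* was at 0.44.

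The autophagy list had the highest median. Of 34 measured genes, 13 were higher and 1 lower (median 0.49), and limma called 15 higher and 2 lower. After normexp correction 8 were higher and the median was 0.35. Autophagy encloses cytoplasm in a membrane marked by lipidated LC3 and GABARAP proteins. *MAP1LC3B* went from 3.11 and 3.09 on the mock arrays to 3.96, *GABARAPL1* from 2.13 and 2.16 to 3.24, and *MAP1LC3A* from −0.07 and −0.03 to 1.31. The cargo receptor *SQSTM1* (p62) went from 5.49 and 5.51 to 6.35. The exception was *ATG3*, the enzyme that conjugates LC3 to lipid, at 3.26 and 3.25 against 2.68. Such membranes end in lysosomes. The lysosomal proton pump, the vacuolar ATPase, had 7 higher and 1 lower of 18 (median 0.37), with 17 of the 18 above 0. *ATP6V0A1* went from 3.82 and 3.82 to 5.13 and *ATP6V1G2* was at 1.19. *ATP6V1H* (0.40) and *ATP6V0D1* (0.27) did not pass, and *ATP6V0E2* (−1.05) was lower. Lysosomal hydrolases and membrane proteins gave 9 higher and 5 lower of 45 (median 0.21). *HEXA* (1.14), *PSAP* (0.95) and the protease *CTSD* (0.79) were higher, *LAMP1* was at 0.32, and *GUSB* (−1.27) and *CTSC* (−1.0, 3 probes from −2.39 to −0.02) were lower.

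Genes of endoplasmic reticulum chaperones and the unfolded protein response held 11 higher and 1 lower of 32 (median 0.40). The median was 0.19 with 6 higher genes after normexp correction and 0.27 with the brightest probe, and 7 were higher with median scaling. *HSPA5* (BiP), the chief chaperone of this compartment, went from 1.72 and 1.68 to 2.79 and its cochaperone *DNAJB9* from 1.82 and 1.69 to 2.71. The lectin chaperone *CANX* was lower, at −0.85 over 2 probes. The amino acid arm of the stress response went the other way. Among 32 ATF4-related genes, 13 were lower and 1 higher (median −0.40). *STC2* went from −0.36 and −0.55 to −2.41. *ASNS*, which makes asparagine, was at 7.35 and 7.35 against 6.89, and *TRIB3* was near the mock values (0.04). *DDIT3* (CHOP), which both stress arms induce, was the higher gene (0.57). Cytosolic tRNA synthetases gave 0 lower and 1 higher of 22 (median 0.00): *WARS1* was at 0.57 and *AARS1* at 0.31. The list of heat shock chaperones gave 4 lower and 2 higher of 34 (median −0.11). *CCT5* (−1.21), *HSPD1*, which works in mitochondria (−0.64), and *DNAJB1* (−0.52) were lower, *DNAJB4* (1.05) and *HSPA6* (0.82, with 1 of 2 probes dim on the mock arrays) were higher, and *HSPA1A* was at 0.18.

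The antioxidant list was mixed, with 3 lower and 5 higher of 32 (median 0.06). *HMOX1*, which degrades heme, was at 4.15 and 4.09 on the mock arrays and 5.43 after *miR-486-5p*, and the ferritin light chain *FTL* was at 0.83. *NQO1*, another NRF2 target, was at 0.11, and *ABCC3* (−1.03) and *AKR1B1* (−0.83) were lower. AHR and xenobiotic genes gave 1 lower and 3 higher of 18 (median 0.10). The median was 0.17 without mock 1, and 0.04 without mock 2, where 3 were lower and 3 higher. The paired enzymes of the AHR differed: *CYP1A1* was at −1.62 and *CYP1B1* at 1.1. *GSTO1* was at 0.70. Metallothioneins and zinc transporters gave 0 lower and 5 higher of 16 (median 0.17), or 3 higher with median scaling. The exporter *SLC30A1* (0.86), the importer *SLC39A4* (0.78) and *MT1X* (0.56) were higher, but *MT2A* did not differ, at 8.97 on each of the 3 arrays.

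Lipid synthesis divided by branch. Cholesterol synthesis genes gave 6 higher and 0 lower of 24 (median 0.31). *HMGCS1*, which commits acetyl units to the mevalonate pathway, was at 3.35 and 3.12 on the mock arrays and 4.47 after *miR-486-5p*, and *TM7SF2*, a sterol reductase, was at 1.16. Fatty acid and triglyceride synthesis gave 7 lower and 1 higher of 28 (median −0.28). *FASN*, the fatty acid synthase, was at 6.13 and 6.10 against 5.05, and *ACSS2*, which activates acetate, at −1.21. *SCD* was at −0.34 and the lipid droplet protein *PLIN3* at 0.62. Glycolysis gave 5 lower and 0 higher of 24 (median −0.26). *SLC16A3*, the lactate exporter, went from 7.04 and 6.99 to 5.79, *LDHA* from 5.55 and 5.57 to 4.82, and *PFKFB4* was at −1.04, while *HK2* was at −0.40. Hypoxia-inducible genes were lower in 5 and higher in 4 of 21 (median −0.09; 2 higher with median scaling), with *VEGFA* (−0.82) and *LOX* (−1.0) opposed by *NDRG1* (0.87) and *ANGPTL4* (0.84).

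In mitochondria, the citric acid cycle list gave 3 lower and 2 higher of 25 (median −0.26). *PDHA1*, of pyruvate dehydrogenase, was at −1.08 and *IDH2* at −1.02, while the cytosolic *IDH1* (0.55) and *IDH3G* (0.72) were higher and *CS* was at −0.28. Respiratory complex I gave 0 lower and 3 higher of 37 (median 0.20), with *NDUFA3* at 0.89, *NDUFA13* at 0.64 and the core subunit *NDUFS1* at 0.26. Complexes III to V held no gene past the limit among 34 (median −0.02), and limma called 0 in either direction. *COX5A* (−0.30) and *ATP5F1B* (−0.02) stand for them.

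Cytosolic ribosomal proteins stayed close to the mock arrays: of 82 genes, 1 was lower (3 with median scaling) and 0 higher, with a median of 0.00. *RPL3* was at 8.15 and 8.17 on the mock arrays and 8.17 after *miR-486-5p*, *RPS6* was at −0.07, and *RPL7* (−0.50) was just past the limit. Translation factors gave 3 lower and 0 higher of 60 (median 0.00), with *EEF2K* at −0.78, *EIF2D* at −0.61, *EIF4E* at −0.04 and *EIF5A* at 0.04. The proteasome gave 0 lower and 1 higher of 38 (median 0.04): *PSMC4* was at 0.61, *PSMB5* at 0.24 and *PSMD4* at 0.08. Mitochondrial ribosomal proteins gave 8 lower and 1 higher of 77 (median −0.15). Among them *MRPS14* stood out, from 3.46 and 3.35 to 1.04. *MRPL58* was at −1.09 and *MRPL24* at 0.78, and *MRPL19* (−0.42) and *MRPS12* (−0.28) did not pass.

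Ribosome biogenesis genes gave 12 lower and 2 higher of 69 (median −0.25), or 0 higher with median scaling. *FBL*, the methyltransferase that modifies ribosomal RNA, went from 8.62 and 8.74 to 8.01, and *EBNA1BP2* (−1.09) and *TCOF1* (−0.86) were lower. *NOP56* was at −0.31, and *UTP3* (0.62) and *SURF6* (0.57) were higher. Splicing factors of the hnRNP and SR families were listed apart from the core spliceosome. The former gave 9 lower and 2 higher of 37 (median −0.37; 0 higher with median scaling), and the latter 6 lower and 0 higher of 50 (median −0.14), a difference that was not tested. *HNRNPA3*, measured by 5 probes from −1.52 to −0.05, was at −1.01 and *HNRNPF* at −1.04, while *HNRNPA1* (−0.49) and *SRSF1* (−0.37) did not pass and *SRSF6* was at 0.59. *SRSF12* was at 0.62 and was not called by limma. In the core, *LSM5* (−1.04) and *SNRPF* (−0.89) were lower, and *SF3B1* (0.08) and *PRPF8* (0.32) did not pass. Genes of microRNA processing and Argonaute gave 0 lower and 5 higher of 28 (median 0.08), or 2 higher with median scaling (median 0.01) and with normexp correction. The decapping enzyme *DCP2* (0.82) and *AGO4* (0.77) were higher, and *AGO2* (0.15) and *DICER1* (0.18) did not pass.

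Chromatin writers and erasers gave 8 lower and 10 higher of 60 (median −0.04). *EZH2*, the Polycomb methyltransferase of dividing cells, was at 3.41 and 3.29 on the mock arrays and 2.62 after *miR-486-5p*, whereas its paralog *EZH1* was at −0.45 and −0.34 against 0.74. *DNMT3B* and *HELLS* (both −0.92) were lower, *DNMT1* was at −0.55 and missed the limit against mock 2, and the demethylase *KDM5A* was at 1.42.

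Lists of the cell surface and the cytoskeleton held both lower and higher genes. Integrins gave 8 lower and 6 higher of 25 (median −0.08). *ITGB4*, of hemidesmosomes, went from 1.14 and 1.1 to −0.46. *ITGB1*, the common beta chain, went from 2.22 and 2.22 to 3.12, and *ITGB8* (1.21) and *ITGA2* (0.67) were higher. Laminins and basement membrane genes gave 4 lower and 4 higher of 22 (median 0.03), with *LAMC3* (−1.46) and *NID2* (−0.98) lower. *COL4A1* was at 0.15, and *COL4A6* was not well above background on the mock arrays and was higher by at least 1.18 on the log2 scale. Fibrillar collagens and matrix remodeling genes gave 8 lower and 5 higher of 36, with a median of −0.11, which turned to 0.02 after normexp correction and 0.05 with no filter. *LOXL1* (−1.52), *PLAT* (−1.37) and *FN1* (−0.97, a bound) were lower, and *TIMP1* (1.24), *MMP1* (0.71) and *BMP1* (0.89, not called by limma) were higher.

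Epithelial junction genes and regulators of the epithelial-mesenchymal transition gave 11 lower and 7 higher of 43 (median −0.01). *VIM*, the mesenchymal intermediate filament, was at 9.02 and 8.99 on the mock arrays and 8.15 after *miR-486-5p*, but the epithelial genes *CLDN4* (−1.59) and *KRT80* (−1.49) were lower as well, and the desmosomal cadherins *DSC2* (1.12) and *DSG2* (0.88) were higher. Actin cytoskeleton genes and SRF targets gave 8 lower and 2 higher of 45 (median −0.08). *ACTA2* (−1.49) and *TAGLN2* (−1.51) were lower and *MYL6* (0.69) and *TAGLN* (0.66) higher. Of 32 ABC transporters, 7 were lower and 4 higher (median −0.20). There were 12 lower with median scaling, 11 without mock 1 and 1 after normexp correction, where the median was −0.02. *ABCB1*, the multidrug exporter, was at 1.23, *ABCG2* was higher by at least 0.76, *ABCD2* was lower by at least 0.99, and *ABCA1* (−0.51) and *ABCC2* (0.04) did not pass.

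Immune and death genes showed no common direction. Interferon-stimulated genes gave 4 lower and 7 higher of 31, with a median of 0.01 that was 0.19 with the brightest probe. *IFIT1* (−0.41) and *ISG15* (−0.19) did not pass. *IFI35* (1.05) was higher, as was *SAMD9* at 1.20, which limma did not call. *OASL*, which fell below the background limit of the *miR-486-5p* array (−1.64), and *IFITM1* (−0.70) were lower. MHC class I genes gave 2 lower and 3 higher of 18 (median 0.22, or 0.10 with the brightest probe). The peptide transporters *TAP1* (−0.52) and *TAP2* (−0.84) were lower, while their regulator *NLRC5* (0.96) and *TAPBPL* (0.75) were higher and *B2M* was at 0.29. NF-kappaB and inflammatory genes gave 5 lower and 3 higher of 28 (median −0.02). *TNFAIP2* (−1.60) and *CCL2* (−1.5, a bound) were lower, *CXCL3* (1.5) and *TNFAIP3* (0.92) were higher, and *NFKBIA* was at −0.06. The p53 target list gave 4 lower and 7 higher of 31 (median −0.06). *GDF15* went from 3.44 and 3.39 to 1.93 and *DDB2* was at −1.07, opposite to *CDKN1A* and *BTG2*. *SUSD6* was at 0.95, and *MDM2*, the feedback ligase, was at 0.15. In the BCL2 family, 6 of 21 were lower and 1 higher (median −0.12). The BH3-only genes *PMAIP1* (NOXA, −1.55) and *BBC3* (PUMA, −1.04) were lower and *BIK* (1.36) higher, and the survival genes *BCL2L1* (0.05) and *MCL1* (0.29) did not pass.

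The A549 label was set against markers of cell types. Of 12 lung epithelial markers, 10 were measured. The keratins *KRT7* (4.18, with mock values of 4.02 and 4.03) and *KRT18* (5.51, with mock values of 6.06 and 6.09) were bright, and *KRT19* was at −3.34, with mock values of −2.33 and −2.38. *KRT18* (−0.57) and *KRT19* (−0.99) were lower. *KRT8* was at −0.05 as the mean of 3 probes that ran from −1.07 to 1.62, and limma called them in both directions. The surfactant genes *SFTPA1* and *SFTPB* were not well above background, and the alveolar regulator *NKX2-1* was at its edge, above background on only 1 mock array. In contrast, the surfactant gene *SFTPC* (−3.0 and −3.12 on the mock arrays) was above background on all 3 arrays. So was 1 of 2 probes of *NAPSA* (−3.28 and −3.38). *FOXA2*, an endodermal factor, went from −2.70 and −2.60 to −4.37, where its probe was not well above background (lower by at least 1.72). Of the longer list of alveolar type 2 and lung epithelial genes, 5 of 19 were lower and 0 higher (median −0.01), with *LAMP3* at −1.13. In the list of blood, endothelial and stromal markers, 14 genes were measured, 1 lower and 1 higher (median 0.25, or 0.10 after normexp correction). *PECAM1* and *COL3A1* were not well above background, and *COL1A1* was at −4.50 and −4.36 on the mock arrays. The endothelial genes *CDH5* (−1.39 and −1.57) and *VWF* (−3.52 and −3.64), the stromal genes *PDGFRB* and *DCN* and the T cell gene *CD3E* were above background on both. *PTPRC* was measured by 2 of 5 probes, at −2.0 on each mock array and −1.65 after *miR-486-5p*, and *CD14* was higher (0.79). Their part in the other results was not tested. In RNA from a whole culture, fewer cells in a state and less RNA per cell cannot be told apart.

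Families were also formed from the letters that open a gene symbol, without regard to function. There were 181 such stems with at least 10 measured members, and their medians were ranked. The 5 lowest were *MCM* (11 genes, median −0.97), *FZD* (11, −0.45), *KIF* (34, −0.45), *CEP* (41, −0.43) and *SOX* (11, −0.41). In the *MCM* stem, 9 were lower and 0 higher, with *MCM4* and *MCM10* lowest. The frizzled receptors had 4 lower and 0 higher, led by *FZD8* and *FZD2* (−1.13). The *CEP* stem, mostly of centrosomal genes, had 16 lower and 1 higher, with *CEP68* at −1.41 and the divergent transcript *CEP83-DT* at −1.28, and of the *SOX* factors 3 were lower, with *SOX12* at −1.41 and *SOX9* next. The 5 highest were *MIR* (29 genes, median 0.47), *EXOC* (11, 0.47), *ATG* (17, 0.47), *ACTR* (13, 0.41) and *PCDHB* (12, 0.40). The *MIR* stem is made of precursor and host transcripts and not of mature microRNAs. It had 9 higher genes, among them *MIR100HG* and *MIR155HG*, and 2 lower, *MIR210HG* and *MIR503HG*. The *EXOC* stem had 2 higher and 0 lower, the exocyst gene *EXOC7* and the antisense gene *EXOC3-AS1*. The *PCDHB* stem, of protocadherins and a pseudogene, had 5 higher and 0 lower, with *PCDHB10* (1.08) and *PCDHB16* highest. All 10 medians kept their sign under median scaling, quantile normalization, the authors' log2 values and normexp correction. The last, with its added offset of 50 that by itself makes differences smaller, made all 10 smaller in size. *MIR* fell to 0.12, below *ACTR* (0.17), *PCDHB* (0.20), *EXOC* (0.22) and *ATG* (0.23). *MCM* was then at −0.90, *FZD* and *KIF* at −0.24, *CEP* at −0.22 and *SOX* at −0.10. Normexp correction also lowered the counts of all 10 stems. It left 0 genes of the *EXOC*, *PCDHB* and *ACTR* stems past the limit, 6 lower *CEP* genes and 3 higher *MIR* genes.

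Genes with noncoding accessions alone had another balance from coding genes. Among 2195 such genes, 8.11% were lower and 11.8% higher (median 0.11), against 14.9% and 11.2% of 13829 genes with a coding accession (median 0.02). The largest falls were those of the antisense gene *DCST1-AS1* (−2.89), of *RHPN1-AS1* (−2.46) and of *LINC01444* (−2.41). *HOTAIRM1*, transcribed from the HOXA cluster, rose from 0.22 and 0.15 to 2.30, with its 3 probes between 1.73 and 2.70, and *LINC01111* was at 1.94. The 5.8S ribosomal RNA gene *RNA5-8SN5* went from 5.45 and 5.43 to 7.60. It has no poly(A) tail, and its probe also cannot separate the repeated copies of this gene.

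Promoter motifs were counted in 11269 of the 13829 coding genes, in the window from 250 bases before to 50 after the start. An E2F site was present in 3.48% of the 1638 lower genes, 1.74% of the 8372 genes that were neither and 1.75% of the 1259 higher genes, against 1.18% of all 27305 promoters of the table. Of the 225 genes with this site, 25.3% were lower and 9.78% higher, beside 1638 lower and 1259 higher of all 11269 genes searched. The CHR element was present in 13.4% of lower, 9.25% of neither and 9.85% of higher genes (15.4% of all promoters), and the CCAAT box in 40.1%, 36.0% and 35.7% (35.7% of all). The AP-1 site (TGANTCA) went with the higher genes, at 3.85% of lower, 4.50% of neither and 7.39% of higher genes (7.76% of all), as did the TATA box (TATAAA), at 6.53%, 6.29% and 9.13% (12% of all). Among genes past the limit of 1, the CCAAT box turned round, with 37.3% of lower and 40.8% of higher genes.

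Other motifs followed. The ETS site (CCGGAAGT) was present in 5.31% of lower, 8.59% of neither and 8.50% of higher genes (4.44% of all), and the GC box (GGGGCGGGG) in 29.4%, 26.9% and 23.0% (16% of all), and past the limit of 1 in 26.6% of lower and 21.4% of higher genes. The antioxidant response element (TGACNNNGC) was in 13.9%, 14.5% and 17% (13.6% of all), the cyclic AMP response element (TGACGTCA) in 3.05%, 3.02% and 3.73% (1.98% of all), and the E-box (CACGTG) in 10.6%, 9.81% and 9.93% (7.43% of all). The CArG box was in 1.40%, 1.04% and 1.11% (1.29% of all), without excess among higher genes. Past the limit of 1, the ETS site (6.44% of lower, 5.97% of higher) and the antioxidant response element (12.2% and 10.9%) also turned round. The GLI site (TGGGTGGTC) was in 24 of the promoters, of which 4 belonged to lower and 4 to higher genes (0.249% of all). The CHR and CCAAT letters are short and can overlap other motifs, and a match describes the letters in this window and not binding.

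**Figure D5:**
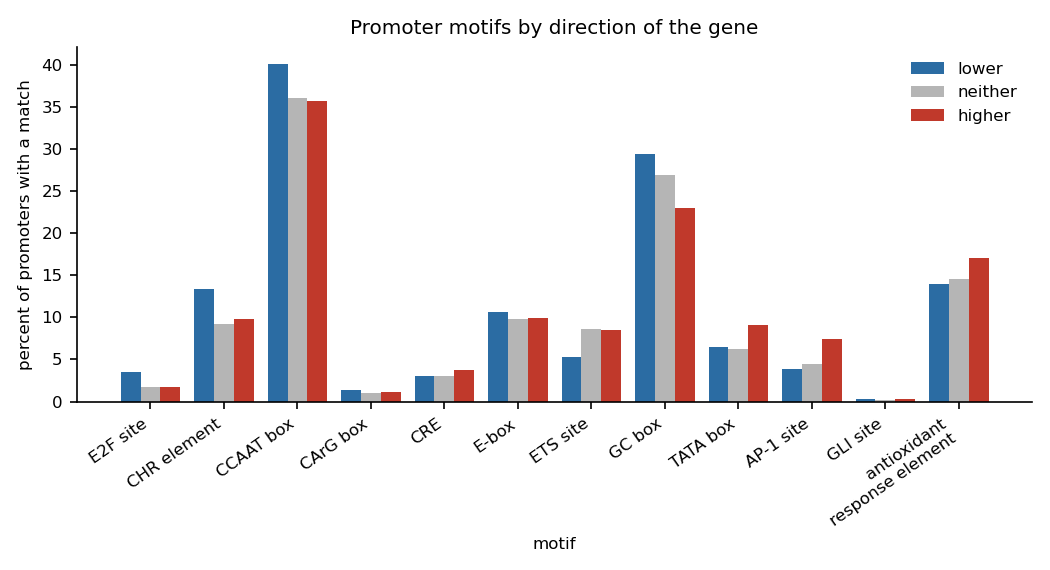
Percent of promoters that hold each of 12 motifs among genes lower than both mock arrays (blue, 1638 promoters), neither (gray, 8372) and higher (red, 1259). At this limit of 0.5, the E2F site, CHR element, CCAAT box, GC box, E-box and CArG box have their highest bar in the lower genes. The AP-1 site, TATA box, antioxidant response element, cyclic AMP response element and GLI site have it in the higher genes. The ETS site has it in the genes that were neither. Past a limit of 1, the CCAAT box, ETS site and antioxidant response element turn round between lower and higher genes.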

How the data were processed

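RNA from 4 A549 samples was hybridized to 1-color Agilent arrays, of which the *miR-486-5p* array and both mock arrays were compared. The authors deposited, per array, the output of Agilent Feature Extraction 12.1.1.1, with a background-corrected intensity per spot, and log2 values whose normalization is not given in the sources used here. From the intensity, log2 was taken and the 75th percentile over spots other than controls was subtracted. Outlier spots were left out (67, 62 and 50 for *miR-486-5p*, mock 1 and mock 2), and spots of a probe were averaged. The 75th percentiles were 104.6, 114.1 and 114.3, and 30690, 30785 and 31012 of 58201 probes were well above background, with 0 spots saturated. The mock arrays differed with an SD of 0.205 (29991 probes), and *miR-486-5p* differed from mock 1 with 0.532 (29455 probes) and from mock 2 with 0.534 (29573 probes). The number of arrays limits the precision.

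Where a probe was dim throughout a group, signals under the array's lowest one well above background were raised to it, and "at least" marks a difference with a dim side. limma used values without this step. A gene is the mean of its probes in use. Of 33080 probes with a RefSeq accession, 31104 matched a gene of GRCh38.p14, a table that served only to name genes, as the annotation of the arrays is on hg19; 27097 of 58201 probes stayed without a name. limma 3.58.1 in R 4.3.3 (lmFit, eBayes; tested on simulated data) was fitted to 31568 probes on the 3 arrays. The prior SD was 0.0887, on 2.1 degrees of freedom. A gene is called where its passing probes share 1 direction; 22 genes with probes passing in both directions are not counted. Its p-values measure only the spread between the mock arrays, which may be technical. Tables and plots were made in Python 3.11.15 with pandas 2.3.3.

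Genes named are the 12 largest falls and rises among coding genes (3 each among noncoding), ranked by the smaller difference from either mock array, with all probes above background mock arrays within 0.5 and no LOC symbol; preset members and up to 2 lowest and 2 highest of each list; members of the 5 lowest and 5 highest symbol stems; and 3 bounds in each direction. Members and lists were chosen with earlier results of these data known. The promoters printed were chosen after the motifs were found in them. Lists share genes.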

Additional observations from a re-analysis of the deposited data

Results flagged for a closer look

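Probes without a matched gene name entered no comparison of genes. Of 10143 such probes in use, 770 (7.59%) were lower and 1289 (12.7%) higher than both mock arrays. They are given because the signal lies outside the named genes: the extremes among probes above background on the 3 arrays were differences of −3.74 for A_22_P00010710 (mock signals of 0.98 and 0.81 against −2.84) and 2.79 for A_22_P00010217 (0.27 and 0.34 against 3.1). The transcripts they measure are not named here.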

How the results depend on the processing

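Normexp correction of the median signal, with an offset of 50 added, and limma on the 4 arrays, were chosen after seeing the data. The offset by itself makes log2 differences smaller, so fewer genes past the limit with this setting do not show an effect of background correction alone. The count of genes lower than both mock arrays was 2238 and moved by over 1.5 times only with a limit of 1 (640) and with normexp correction (1186), and that of higher genes was 1809 and moved with the same settings (316 and 631). Without mock replicate 1 or 2, where 1 mock array alone set the limit, the counts were 2563 to 2642 lower and 2262 to 2270 higher. limma's calls, 2461 lower and 1851 higher, depended on the processing. They were 4425 and 4187 with an intensity trend, 3830 and 3719 with normexp correction, and 1104 and 591 in the fit on the 4 arrays. limma called 0 and 0 on the authors' log2 values (8085 genes with an unadjusted p under the threshold) and 0 and 0 with no filter (9219 such genes). The methods' t-test gave 4243 genes with a p under its threshold and 0 and 0 after Benjamini-Hochberg adjustment. The cause was not tested. All 30 genes of the largest differences kept their direction under the 9 settings run, and the smallest size was 0.66 with normexp correction and 1.73 in the others. They were chosen for large differences from both mock arrays, with every probe above background, so a kept direction largely follows from the choice. Of 558 list medians under these settings, 531 moved by less than 0.115, the SD of single genes on 1 mock array, and 17 moved more without changing sign. The other 10 changed sign, all close to 0: CDK inhibitors and pocket proteins (0.01 with normexp, 0.07 on probes above background on all 3 arrays, 0.01 with the brightest probe), the Hedgehog pathway (0.03 with normexp, 0.00 with the brightest probe), the Notch pathway (0.06 with the brightest probe), PI3K, AKT and FOXO (0.00 on all 3 arrays and 0.00 with the brightest probe) and fibrillar collagens (0.02 with normexp, 0.05 with no filter). Only medians of at least 0.1 in size were judged. The SD of 0.115 is a spread of single genes and not of medians, so a smaller move does not show a stable median. Moves below it took the Wnt median from −0.20 to −0.11 with normexp correction and the Hippo median from −0.15 to −0.06 without mock 1. limma has no residual degrees of freedom without either mock array. Normexp on the mean signal was not run, as the files used hold no such column, and a slide effect could not be fitted with 1 slide. No paired analysis was possible because no source pairs the lone *miR-486-5p* array with a mock array.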

Other observations

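The *miR-486-3p* array gives other values for the same lists. Both comparisons use the same mock arrays, so their values are set side by side without any comparison of the arrays. With the same rule, 4191 genes were lower and 4569 higher of 16446 after *miR-486-3p*. Mitotic spindle and kinetochore genes had medians of −1.0 (5p) and −2.65 (3p), and ATF4-related genes −0.40 and −1.07. Autophagy genes were at 0.49 and 0.52, the vacuolar ATPase at 0.37 and 0.53, and ER chaperones at 0.40 and 0.48. The medians of further lists were: cholesterol synthesis 0.31 and −1.48, Hedgehog −0.14 and 0.56, respiratory complex I 0.20 and −0.21, and interferon-stimulated genes 0.01 and 1.08. Ribosome biogenesis genes were at −0.25 and −0.79, and immediate early genes at 0.24 and 0.07, with 12 and 10 higher genes and 3 and 9 lower genes.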
